A study of Equus caballus with 14 samples.

Results

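The genes described here were found in each of 4 day 13 equine embryos and were all but absent from endometrium of pregnant and cyclic mares. They were chosen from the read counts themselves. CPM, the counts per 1000000 counts of a library, was computed on the library total. A gene had to be at most 0.5 CPM in each of 9 endometrium libraries and above 4 CPM in each of embryos 2 to 5, and the 150 genes with the largest minimum over those embryos were asked for. Only 83 of 26740 genes met both limits, so all 83 were taken. These limits fix that the genes were high in embryos 2 to 5 and low in endometrium, which is therefore given as a description without a test. Embryo 1 took no part in the choice.

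The mRNA libraries came from 4 cyclic and 5 pregnant samples of endometrium and from 5 embryos, on day 13 after ovulation. In the study, the same 5 Warmblood mares were given hCG and were either left unbred (cyclic) or inseminated with fresh semen of a single stallion (pregnant), each mare serving as its own control. Pregnancy was established by flushing the embryo from the uterus before the biopsy was taken. The capsule was removed from each embryo and the yolk sac fluid was aspirated, so the embryo libraries hold embryonic tissue. The endometrium libraries held from 21.8 to 46.9 M counts (M stands for 1000000), and embryos 1 to 5 held 44.6, 23.5, 50.8, 239.8 and 25.9 M. Embryo 1 stood apart. Its 10 most counted genes took 91.7% of its counts and left 3.69 M for all other genes, against 6.64 to 9.82% in endometrium and 17.5 to 33.9% in embryos 2 to 5.

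At this age the horse conceptus is a spherical vesicle that moves through the uterine lumen inside a glycoprotein capsule. Trophectoderm and the endoderm of the developing yolk sac make up most of its wall, and the embryonic disc occupies a small part of it. The vesicle is known to secrete oestrogens and prostaglandin E2, while the endometrium is a mature tissue of luminal and glandular epithelium, stroma, vessels and leukocytes. The files give Ensembl identifiers without symbols and the gene table used here matched 0 of them, so the roles of the 83 genes, the marker genes of either tissue and the sequences were not analysed here.

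The 83 genes made up 0.978% of the 8487 genes above 4 CPM in each of embryos 2 to 5. Most genes under the endometrium ceiling were also silent in embryos. Of 11250 genes at most 0.5 CPM in every endometrium library, 8080 had 0 counts in embryos 2 to 5. The limit of 4 CPM did not fall in a gap. The lowest minima among the 83 genes were 4.01, 4.56 and 4.58 CPM, and the highest minima left out were 3.98, 3.96 and 3.94 CPM. On the side of the endometrium, the highest levels inside were 0.4997, 0.492 and 0.490 CPM, and genes with 0.505, 0.506 and 0.511 CPM were the nearest outside. With a minimum above 1 CPM there were 137 such genes, above 16 CPM there were 39, above 64 CPM there were 13 and above 100 CPM there were 5.

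The levels of the genes covered a wide range. The mean CPM of a gene over embryos 2 to 5 ran from 5.39 to 388.6, with a median of 24.96 and quartiles of 12.4 and 61.5. A few genes carried much of the total. By mean CPM, the 3 highest held 22.6% and the 10 highest held 48.9% of the summed CPM. None of the 83 was among the 10 most counted genes of any embryo. CPM is not a level per length, so these shares and any order of the genes here are those of counts.

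**Figure D1:**
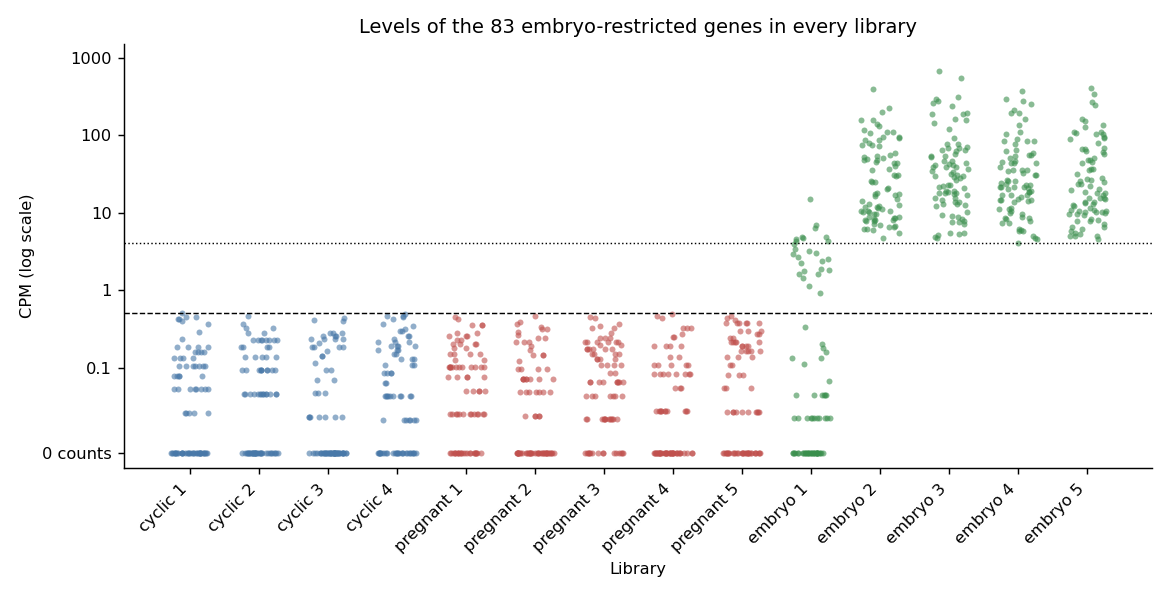
Each point is 1 of the 83 genes in 1 library, with CPM on a log axis and genes without counts set apart at the bottom; the dashed line marks 0.5 CPM and the dotted line 4 CPM. Endometrium lies under the dashed line and embryos 2 to 5 above the dotted line by the choice of the genes, while in embryo 1, which chose nothing, 26 genes were above 0.5 CPM and 9 above 4 CPM.

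The gene with the largest minimum was ENSECAG00000011979. It had 390.4, 238.5, 293.9 and 340.6 CPM in embryos 2 to 5, from 9174, 12112, 70464 and 8809 counts. Its endometrium counts were 5, 7, 0 and 21 in the cyclic mares (samples 1 to 4) and 18, 0, 13, 12 and 17 in the pregnant mares (samples 1 to 5). Embryo 3 was thus the lowest and embryo 2 the highest of the 4, and cyclic and pregnant values overlapped. The mean was 315.8 ± 64.9 CPM (SD, n = 4) in embryos 2 to 5 and 0.269 ± 0.185 CPM (SD, n = 9) in endometrium. Embryo 1 had 670 counts or 15.0 CPM, the most of all 83 genes in that library.

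Embryos 2 to 5 gave similar shares of their counts to the 83 genes. The share was 0.387% in embryo 2 (95% Wilson interval 0.384 to 0.389), 0.580% in embryo 3 (0.577 to 0.582), 0.429% in embryo 4 (0.428 to 0.430) and 0.414% in embryo 5 (0.411 to 0.416). Embryo 3 was the highest, and the mean was 0.452 ± 0.0865% (SD, n = 4). Since the most counted genes took unequal shares of these libraries, the share was also computed on the counts outside the 10 most counted genes of each library. It was then 0.586, 0.702, 0.527 and 0.586% in embryos 2 to 5, so embryo 3 remained the highest and embryo 4 became the lowest. The intervals cover counting error only and leave out the spread between embryos. The methods of the study name no molecular identifiers, so copies of the same molecule may have been counted as separate reads.

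The spread of single genes over embryos 2 to 5 was wide. The ratio of the highest to the lowest CPM over embryos 2 to 5 had a median of 2.17 (quartiles 1.77 and 2.87), from 1.13 to 15.5. It was above 2 for 46 genes, above 3 for 18 genes and above 4 for 8 genes. For the other 8404 genes above 4 CPM in these embryos the median ratio was 1.86 (quartiles 1.53 and 2.35), and a ratio above 4 was found for 2.77% of them against 9.64% of the 83 genes. The coefficient of variation had a median of 34.0% in the 83 genes and 27.9% in the other genes. The nearest class, 269 genes with a highest endometrium level over 0.5 and up to 4 CPM, was close to the 83 genes, with a median ratio of 2.07 and a median coefficient of variation of 31.7%. The other genes were also higher, with a median minimum of 20.8 CPM against 14 CPM, and the part of level in this difference was not tested.

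The least even gene was ENSECAG00000013027. It had 36.4, 190.8, 24.4 and 12.3 CPM in embryos 2 to 5, from 855, 9691, 5844 and 319 counts. Embryo 3 thus carried far more of it than the other embryos. Its mean of 66.0 ± 83.8 CPM (SD, n = 4) was smaller than its spread. The gene had 0 counts in embryo 1 and in all 4 cyclic samples, and 2 counts in pregnant sample 3 were the only counts among the pregnant samples. The most even gene of the 83 ranked 73rd by its minimum, with 6.17, 5.45, 5.84 and 5.53 CPM in embryos 2 to 5, and it too had 0 counts in embryo 1.

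**Figure D2:**
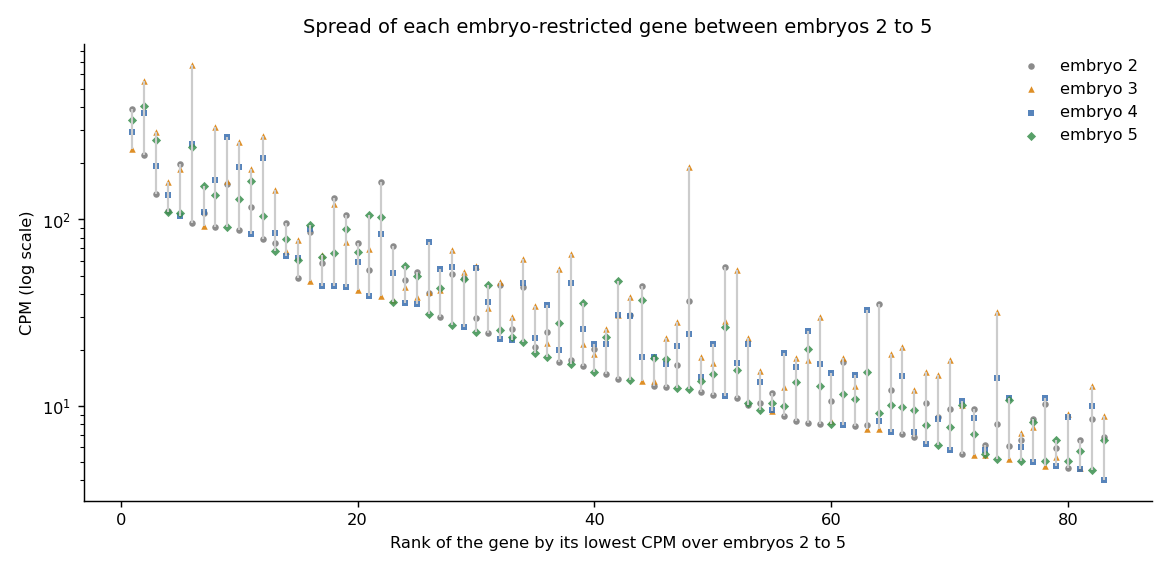
CPM on a log axis in embryos 2 to 5 for each of the 83 genes, ordered by the lowest of the 4 values, with a grey line from the lowest to the highest. Most lines span about 2-fold, and the longest, at rank 48, is the gene with a ratio of 15.5.

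The embryo with the highest value was not the same for all genes. Embryo 3 had the highest CPM for 43 of 83 genes, embryo 2 for 17, embryo 4 for 15 and embryo 5 for 8. As shares these were 51.8, 20.5, 18.1 and 9.64%, against 39.7, 8.64, 41.4 and 10.2% of the other 8404 genes in the same order. This difference between the gene groups was not tested. The values are CPM on library totals, of which the 10 most counted genes took 33.9, 17.5, 18.6 and 29.4% in embryos 2 to 5. The highest and lowest embryo were not read on the counts outside those genes. The lowest value fell in embryo 2 for 28 genes, in embryos 4 and 5 for 21 genes each and in embryo 3 for 13. For embryos 2 to 5 in turn these were 33.7, 15.7, 25.3 and 25.3% of the 83 genes, against 47.6, 14.9, 12.5 and 25.1% of the other genes. The order of the genes was nonetheless similar. Spearman correlations across the 83 genes, which are not independent replicates, ranged from 0.851 to 0.914 between pairs of embryos 2 to 5, and from 0.881 to 0.948 across the other genes.

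To read the genes in an embryo that had not chosen them, the rule was applied with 1 embryo left out in turn. Without embryos 2, 3, 4 and 5 it gave 87, 87, 90 and 88 genes. In the embryo left out, 95.4, 95.4, 92.2 and 94.3% of these were above 4 CPM, and 86 of 87, 87 of 87, 89 of 90 and 88 of 88 were above 0.5 CPM. Among embryos 2 to 5 the genes were thus found again in nearly every case. In embryo 1, 9 of the 83 genes (10.8%) were above 4 CPM. The same reading for genes without the endometrium ceiling is not given here. The rule was likewise applied with endometrium libraries left out. With 1 of the 9 libraries left out, from 83 to 88 genes were taken, of which 0 to 5 exceeded 0.5 CPM and none exceeded 4 CPM in the library left out. The highest such value was 2.85 CPM, in pregnant sample 3.

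Embryo 1 was different. The 83 genes had 4270 counts there, which was 0.00958% of its counts (95% Wilson interval 0.00930 to 0.00987). The mean share of embryos 2 to 5 was 47.2 times as large. On the counts outside the 10 most counted genes the share was 0.116% in embryo 1 and 0.600 ± 0.0734% (SD, n = 4) in embryos 2 to 5, a 5.18-fold difference. Embryo 1 is a single library, so no test was possible. Embryo 1 had 3.69 M counts outside its most counted genes. There the median share of embryos 2 to 5 would have given each of the 83 genes more than 10 counts, from 25.4 upwards. It would also have given each of the 8404 other genes above 4 CPM in embryos 2 to 5 at least 10 counts. Under 10 counts were found for 67.5% of the 83 genes and 51.0% of the others. In all, 4584 genes had 10 or more counts in embryo 1, against 12488 to 14340 in embryos 2 to 5.

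The genes were either well read or nearly missing in embryo 1, and so were most other genes. No counts were found for 32 genes (38.6%, against 16.1% of the other 8404 genes). There were 1 or 2 counts for 17 genes (20.5%, against 23.0%) and 3 to 9 counts for 7 (8.43%, against 11.8%). A single gene had 15 counts, and the other 26 had from 41 to 670. Between 10 and 29 counts there were thus 1 of the 83 genes and 2.27% of the other 8404 genes, from 30 to 99 counts 9 of the 83 genes and 14.9% of the others, and from 100 counts upwards 17 of the 83 genes and 31.9% of the others. A count of 0 in embryo 1 allows a level of up to 0.814 per 1000000 counts outside the most counted genes, or 0.0673 CPM on the library total. The 27 genes with 10 or more counts stood at a median of 58.7% of the median level of embryos 2 to 5 on the counts outside the most counted genes, and the 56 genes with under 10 counts at no more than 2.84%.

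**Figure D3:**
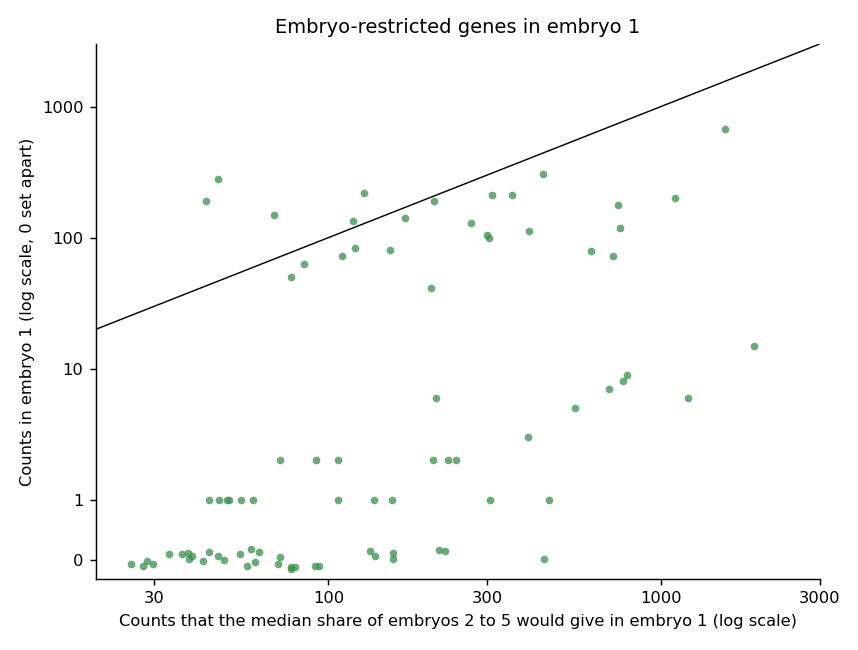
Counts of the 83 genes in embryo 1 (log axis, 0 set apart) against the counts that the median share of embryos 2 to 5 would give there, both on the counts outside the 10 most counted genes; the line marks equality. The points form a band at 41 counts and more and a band at 9 counts and fewer, with a single gene at 15 counts between them.

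Some high genes had few counts in embryo 1. The gene with the second largest minimum had 221.2, 554.0, 373.0 and 406.0 CPM in embryos 2 to 5 and 15 counts or 0.337 CPM in embryo 1, where its share in the other embryos would have given 1904 counts. Per 1000000 counts outside the most counted genes it stood at 4.07 in embryo 1 and at no more than 0.385 in the endometrium. The gene with the highest CPM in any single embryo had 95.4, 675.1, 254.1 and 243.2 CPM in embryos 2 to 5 and 6 counts in embryo 1. The highest ranking gene with 0 counts in embryo 1 had 130, 121.4, 43.7 and 66.5 CPM in embryos 2 to 5. These genes were picked after their values had been seen.

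Other genes were well read in embryo 1. The gene with the third largest minimum had 137.7, 296.0, 193.4 and 268.3 CPM in embryos 2 to 5 and 202 counts or 4.53 CPM in embryo 1, which was 18.4% of the median of the other embryos outside the most counted genes. The gene ranked 82nd had 8.55, 12.8, 9.97 and 4.56 CPM in embryos 2 to 5 and 281 counts or 6.31 CPM in embryo 1. On the counts outside the most counted genes this was 605.3% of the median of the other embryos, the highest value among the 83 genes. In all, 5 genes were at or above the median of the other embryos (6.02%, against 12.6% of the other genes), and 57 were under 5% of it (68.7%, against 49.9%).

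Detection in embryo 1 went with the level in the other embryos. Of the 20 genes with the lowest minima, 14 had 0 counts and 2 had 10 or more, while of the 20 with the highest minima 1 had 0 counts and 12 had 10 or more. The Spearman correlation of embryo 1 with embryos 2 to 5 across the 83 genes was between 0.548 and 0.585, and across the other genes it was between 0.594 and 0.630. With a minimum of 4 to 8 CPM, 17 of 24 genes (70.8%) had 0 counts in embryo 1, against 40.9% of 1519 other genes in this range. With 8 to 16 CPM the shares were 55.0% of 20 and 24.8% of 1933, and with 16 to 32 CPM 14.3% of 14 and 10.6% of 1891. Above 64 CPM, 0 of 13 genes and 0.192% of 1561 had 0 counts, but 6 of the 13 genes (46.2%) had under 10 counts, against 9.80% of the 1561. The order was not the same at every level, for with 16 to 32 CPM under 10 counts were found for 35.7% of the 14 genes and 54.0% of the 1891. These are shares of genes in a single library and were not tested.

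**Figure D4:**
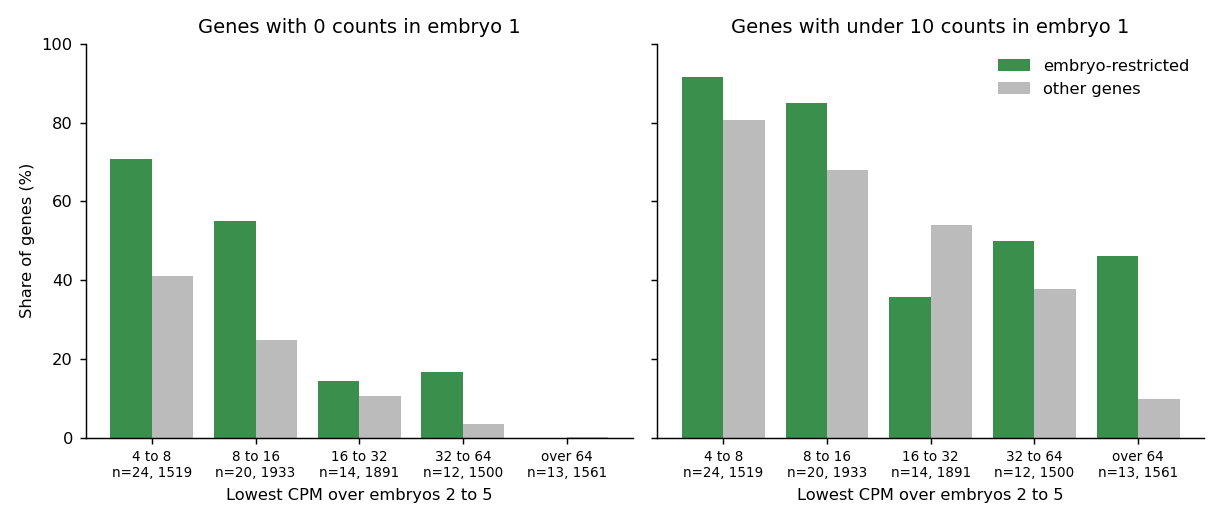
Share of genes with 0 counts (left) and under 10 counts (right) in embryo 1, by the lowest CPM over embryos 2 to 5, for the 83 embryo-restricted genes (green) and the other 8404 genes above 4 CPM (grey), with the number of each under the bars. The green bar is higher than the grey one except for 0 counts over 64 CPM and for under 10 counts at 16 to 32 CPM.

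Genes with low levels in endometrium were also missing from embryo 1. Among genes above 4 CPM in embryos 2 to 5 whose highest endometrium level was over 0.5 and up to 4 CPM, 33.8% of 269 had 0 counts in embryo 1. For an endometrium level over 4 and up to 16 CPM it was 37.5% of 750, against 38.6% of the 83 genes. For higher endometrium levels it was 22.3% of 3244 (over 16 and up to 64 CPM) and 6.30% of 4141 (over 64 CPM). The classes also differed in their level in embryos. From the lowest endometrium class to the highest, their median minima were 12.0, 9.68, 15.0 and 34.3 CPM, against 14 CPM for the 83 genes. The part of level in these shares was not tested. Per 1000000 counts outside the most counted genes, 37 of the 83 genes were no higher in embryo 1 than in the highest endometrium library, and on the plain CPM scale this held for 55. Both numbers include the 32 genes with 0 counts in embryo 1. On the first scale 3 counts in embryo 1 correspond to 0.814, above the endometrium ceiling of 0.5 CPM. Genes with fewer counts there cannot be compared with the endometrium.

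In the endometrium the genes left traces. The 83 genes together had 2622 counts over the 9 libraries, and in single libraries from 36 to 67 of them had at least 1 count. Only 1 gene had 0 counts in all 9 libraries. It had 24.6, 33.7, 35.9 and 44.7 CPM in embryos 2 to 5, and 0 counts in embryo 1. A count in all 9 libraries was found for 14 genes. The highest endometrium level of a gene had a median of 0.217 CPM, and the lowest embryo value stood above it, or above the floor of 3 counts in the shallowest library (0.138 CPM) where that was higher, by 65.2 times in the median. This ratio was at least 8.56 for every gene, since the rule bounds it from below.

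The trace was compared between pregnant and cyclic endometrium. The rule caps both groups alike at 0.5 CPM, so a gene raised above this in pregnant samples was not among the 83. The comparison therefore covers only genes that stayed low in both groups. The summed level of the 83 genes was 7.10, 6.85, 5.91 and 8.63 CPM in cyclic samples 1 to 4 and 7.91, 6.18, 8.85, 5.84 and 9.45 CPM in pregnant samples 1 to 5. The groups overlapped almost wholly. The mean was 7.12 ± 1.13 CPM (SD, n = 4) without an embryo and 7.65 ± 1.59 CPM (SD, n = 5) with an embryo. In bulk tissue, fewer cells with a transcript and less of it per cell cannot be told apart.

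**Figure D5:**
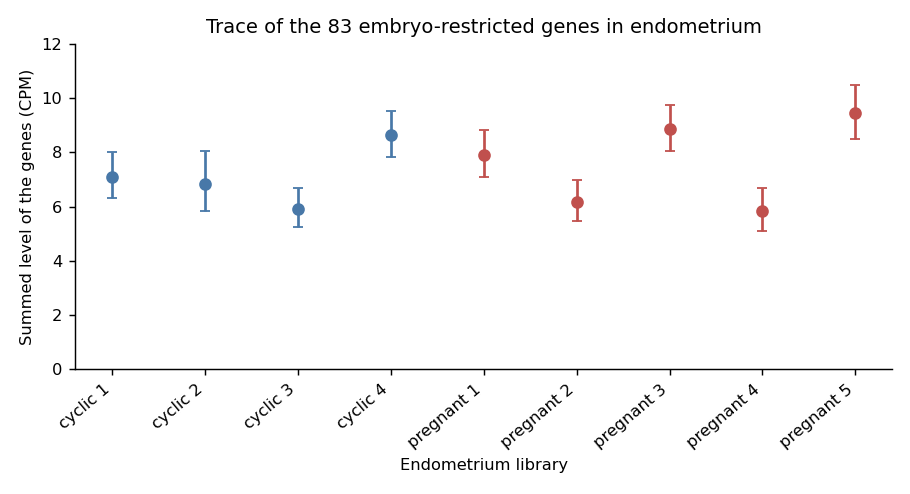
Summed CPM of the 83 genes in each cyclic (blue) and pregnant (red) endometrium library, with 95% Wilson intervals as bars, which cover counting error only. Cyclic samples lie between 5.91 and 8.63 CPM and pregnant samples between 5.84 and 9.45 CPM.

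None of the genes was called between pregnant and cyclic endometrium. Samples with the same replicate number were taken as the same mare, which the labels do not state. The likelihood ratio test of edgeR was fitted within mares to all 17596 genes with at least 10 counts over the 9 libraries. These included 56 of the 83 genes, and the other 27 had too few counts to be tested. With an adjusted p under 0.05 and a change over 2-fold, 0 of the 56 were called, against 1.9% of all genes tested (1.09% higher and 0.813% lower in pregnancy). With so low a share over all genes, 0 calls among 56 genes say little about them. An unadjusted p under 0.05 was found for 2 of the 56, against 11% of all genes tested. The quasi-likelihood test of edgeR gave such a p for 0, against 9.31% of all genes, and DESeq2 for 0, against 11%. With mares 1 to 5 left out in turn, the likelihood ratio test gave such a p for 3 of 53, 5 of 56, 4 of 52, 4 of 53 and 1 of 54 genes, against 16.5, 8.4, 7.98, 9.11 and 10.9% of all genes tested. The share was thus close to that of all genes without mare 2 or mare 3. Of the 56, 27 were higher and 29 lower in pregnancy, with a median log2 change of -0.07 against 0.00 over all genes. The highest summed count of a gene over the 9 libraries was 116, which limits the changes that can be detected. The ceiling of 0.5 CPM had also removed genes that were higher in either group.

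Among the 56 genes, edgeR's likelihood ratio test gave 0.159 as the smallest adjusted p. Counts of that gene were 0, 0, 8 and 3 in the cyclic mares and 0, 0, 0, 0 and 1 in the pregnant mares. For the next gene (edgeR, adjusted p = 0.292) every cyclic mare had 0 counts, and the pregnant mares had 3, 2, 0, 1 and 6. Its level in embryos 2 to 5 was 48.4, 52.5, 26.6 and 47.7 CPM. Neither gene passed the threshold, and both were singled out by their p.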

How the data were processed

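The authors deposited raw read counts per Ensembl gene, with no normalization or filter. Per the methods of the study and the labels, reads were trimmed with cutadapt 1.11, mapped to the Ensembl EquCab reference genome with CLC Genomics Workbench and counted per gene. The library kit keeps strand, but its use in counting and the treatment of reads with several positions are not given in the sources used here, and values of genes that overlap or have close copies are therefore uncertain.

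CPM was computed on library totals in Python 3.11.15 with pandas 2.3.3. The members and lists were chosen with earlier results of these data known. Without symbols, the rule for naming genes allowed 2 identifiers, those of the member with the largest minimum over embryos 2 to 5 and of the member with the largest ratio of highest to lowest value. Lists of markers of epiblast, trophectoderm, yolk sac, mesoderm, neural tissue, germ cells, steroid synthesis, imprinted genes, growth factors, absorptive epithelium and maternal cells could not be read without symbols. Intervals of shares are 95% Wilson intervals. The floor of 3 counts was 0.0639 to 0.138 CPM in endometrium and 0.0125 to 0.128 CPM in embryos. No pair of libraries agreed within sampling noise (smallest chi-square 52.1 per degree of freedom over 91 pairs).

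Pregnant and cyclic endometrium were compared in R 4.3.3 with edgeR 4.0.16, by TMM factors, the likelihood ratio test and Benjamini-Hochberg adjustment, with the mare as a block. The study used each mare as its own control. The labels give replicate numbers only, and the same number was taken as the same mare. Same-numbered samples deviated together in all 4 pairs (r between 0.118 and 0.398), which was not tested. Pregnant sample 5 had no cyclic partner. The study's filter of 4 CPM in at least 4 libraries removes every member, so at least 10 summed counts were asked for. The quasi-likelihood test, DESeq2 1.42.0, other scalings and filters, other forms of the rule and the omission of each library were tried as alternatives. The likelihood ratio and quasi-likelihood tests were checked on simulated counts with 200 changed genes drawn from all genes tested. DESeq2 was not checked in this way, and the check was not made on genes with few counts alone.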

Additional observations from a re-analysis of the deposited data

Results flagged for a closer look

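In 24 groups of values from libraries of the same kind, the gap of the highest and of the lowest value to the next one was set against the whole range. A sample far from the others was found in 5 groups. Chance alone gives such a sample in about 1 in 20 groups, but the number is not comparable with chance here, since the rule fixes the count of genes read in embryos 2 to 5 and ENSECAG00000013027 was named for its uneven levels. Embryo 4 held 239.8 M counts, and the next embryo held 50.8 M. The 10 most counted genes of embryo 1 took 91.7% of its counts. In embryo 1, 51 of the 83 embryo-restricted genes had a count, while all 83 had at least 10 counts in each of the other embryos, as the rule requires. ENSECAG00000013027 had 190.8 CPM in embryo 3, and the next embryo had 36.4 CPM. The same gene had 0.0432 CPM, or 2 counts, in pregnant sample 3 and 0 counts in the other pregnant samples.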

How the results depend on the processing

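Without the replicate block, 0 of the 56 genes tested were called between pregnant and cyclic endometrium, as with it, and the 12 alternatives that tested any of the genes all gave 0 calls, each omission of a replicate included (0 to 0). Of all genes tested these alternatives called from 0.0568% (quasi-likelihood test, 10 genes) to 4.23% (without replicate 1), so that 0 calls say little. The study's own filter left none of the genes to test. The genes that meet the rule numbered 46 with an endometrium ceiling of 0.25 CPM, 129 with 1 CPM and 9 with all 5 embryos in the rule. With these 3 settings the share of counts in embryos 2 to 5 was 0.227, 0.682 and 0.0847%, and that in endometrium was 0.000158, 0.00234 and 0.000126%. With TMM-scaled CPM 121 genes met the rule, with shares of 0.654 and 0.00161% and with 49 genes at 0 counts in embryo 1. Under 0.25 CPM, 17 genes had 0 counts and 31 had under 10 counts there, and under 1 CPM 85 had under 10. With all 5 embryos the median level was 60.8 CPM. In percent, the genes missing from embryo 1 stayed within 1.5 times under every other form of the rule. Omission of a library gave 83 to 90 genes, shares of 0.452 to 0.516% in embryos 2 to 5 and 0.000741 to 0.000845% in endometrium, median levels of 22.9 to 25.2 CPM, median ratios of 2.14 to 2.19, 32 to 38 genes (36.8 to 42.2%) at 0 counts and 56 to 62 (65.5 to 69.0%) under 10 counts in embryo 1. The settings changed which genes qualify, and no further cause was tested. Rules with all 5 embryos give no reading of embryo 1. Depth limits the traces, since 0.5 CPM is 10.9 to 23.5 counts in endometrium.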

Other observations

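Some genes under the endometrium ceiling were read in only part of the embryos. Of the genes at most 0.5 CPM in every endometrium library, 65 were above 4 CPM in some but not all of embryos 2 to 5. Of these, 24 were above 4 CPM in 1 embryo, 21 in 2 embryos and 20 in 3 embryos. The 24 genes were divided over embryos 2 to 5 as 9, 4, 7 and 4. In 11 of the 65 genes at least 1 of the 4 embryos was at or below 0.5 CPM, and in 2 genes at least 1 had 0 counts.

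Both of these genes, chosen after their values had been seen, were well read in some embryos and had 0 counts in others. The higher had 686 counts (29.2 CPM) in embryo 2 and 8308 counts (34.6 CPM) in embryo 4, and 0 counts in embryos 3 and 5. It had 1 count in embryo 1 and 4 counts over the 9 endometrium libraries. The other had 186, 216 and 181 counts in embryos 2, 3 and 5 (7.91, 4.25 and 6.999 CPM), and 0 counts in embryo 4, the deepest library, where 3 counts correspond to 0.0125 CPM. It had 0 counts in embryo 1 and in all 9 endometrium libraries. All embryos carry the same labels apart from their number, and the cause was not tested.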
